A study of Mus musculus with 6 samples.

Results

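The genes described here are 45 Wnt ligands, Wnt receptors and secreted Wnt regulators, among 54418 gene identifiers for which counts were deposited. They were chosen by name as members of the pathway and comprise 15 Wnt ligands, 15 receptors and co-receptors, 13 secreted regulators, and the membrane ligases Znrf3 and Rnf43. RNA was sequenced from mammary cells sorted by FACS from 3 wild-type (Glis2+/+, WT) and 3 Glis2 mutant (Glis2-/-, KO) females, with 1 library per mouse. All mice were 4 weeks old and of the C57BL/6 strain, and no treatment or Cre driver is named for either group. The glands were dissociated with enzymes and the cells stained for TER-119, CD31, CD45, CD24 and CD49f, but the gate that was collected was not given in the labels. The comparison asks whether loss of GLIS2, a zinc finger repressor of transcription that acts downstream of the primary cilium, alters the expression of Wnt pathway components in these cells.

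Wnt proteins are secreted, lipid-modified ligands that bind Frizzled receptors. Together with the co-receptors LRP5 and LRP6 they stabilize β-catenin, which then activates transcription with TCF/LEF factors, whereas the receptors ROR1, ROR2 and RYK mostly serve routes that do not use β-catenin. SFRP proteins and WIF1 bind Wnt ligands outside the cell, DKK1 and DKK2 bind the LRP co-receptors, and R-spondins enhance signaling by removing ZNRF3 and RNF43, ligases that take Frizzled receptors off the cell surface. In the mammary gland, Wnt4 acts downstream of progesterone, Wnt5a restrains branching, and β-catenin signaling is tied to the stem cells of the basal layer.

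The libraries held between 24996524 and 31393917 counts. In a single library, 3 counts correspond to between 0.0959 and 0.12 CPM (counts per 1000000 counts of the library). CPM values were scaled by the TMM method. Genotypes were compared with the quasi-likelihood test of edgeR, to which 21236 genes with enough counts were admitted. The spread between mice of a genotype was large, with a common biological coefficient of variation of 37.4%. Glis2 itself, the targeted gene, had 671, 663 and 510 counts in the WT libraries and 252, 509 and 510 counts in the KO libraries, so reads from the locus persisted in the KO mice. Its log2 fold change was -0.57 ± 0.22 (SE, adjusted p = 0.906), and which exons are deleted was not examined here. Nothing in the labels says that the mice came from separate litters, and p-values measure the spread between these mice only.

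Of the 45 genes, 37 passed the filter on low counts and 8 did not. None of the 37 was called, which required an adjusted p not above 0.05 and a log2 fold change of 0.58 or more in either direction, and the smallest adjusted p was 0.906. The same test called 0.0% of all 21236 genes. Of the 37 genes, 3 had an unadjusted p of at most 0.05 (8.11%), beside 5.32% of all genes tested. These were the ligands Wnt9a and Wnt10b and the receptor Fzd7, each with the higher mean in KO cells. DESeq2 with apeglm, the procedure the study's methods name, also called none of the 41 genes for which it gave an adjusted p, where it called 0.165% of 27248 genes. Its smallest adjusted p among them was 0.455, for Wnt9a. With DESeq2, 5 of 43 had an unadjusted p of at most 0.05 (11.6%), beside 4.1% of all genes. These 5 were Wnt5a, Wnt9a, Wnt10b, Fzd7 and Rspo2. In 5 of the 37 genes (13.5%) the 3 KO libraries did not overlap the 3 WT libraries, beside 11.7% of all genes. All 5, Wnt9a, Fzd2, Fzd6, Fzd7 and Ror2, were higher in KO cells on the CPM scale.

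Directions are given by role, as counts and medians without a test. Of the 37 genes, 24 had a log2 fold change above 0 (64.9%), beside 51.6% of all genes, and 13 had one below 0, beside 48.4% of all genes. The median over the 37 genes was 0.12, against 0.01 for all genes tested. Among ligands, 11 of 12 lay above 0 with a median of 0.51. Among receptors, 10 of 15 lay above 0 with a median of 0.10. Among secreted regulators, 6 of 8 lay below 0 with a median of -0.25. The deposited log2 TPM values gave a different median over the 37 genes, -0.01, against -0.06 for all genes. They placed 9 of the 12 ligands above 0 and 6 of the 8 secreted regulators below 0. In these values Gm23935, the gene with most of each library's TPM, was kept.

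**Figure D1:**
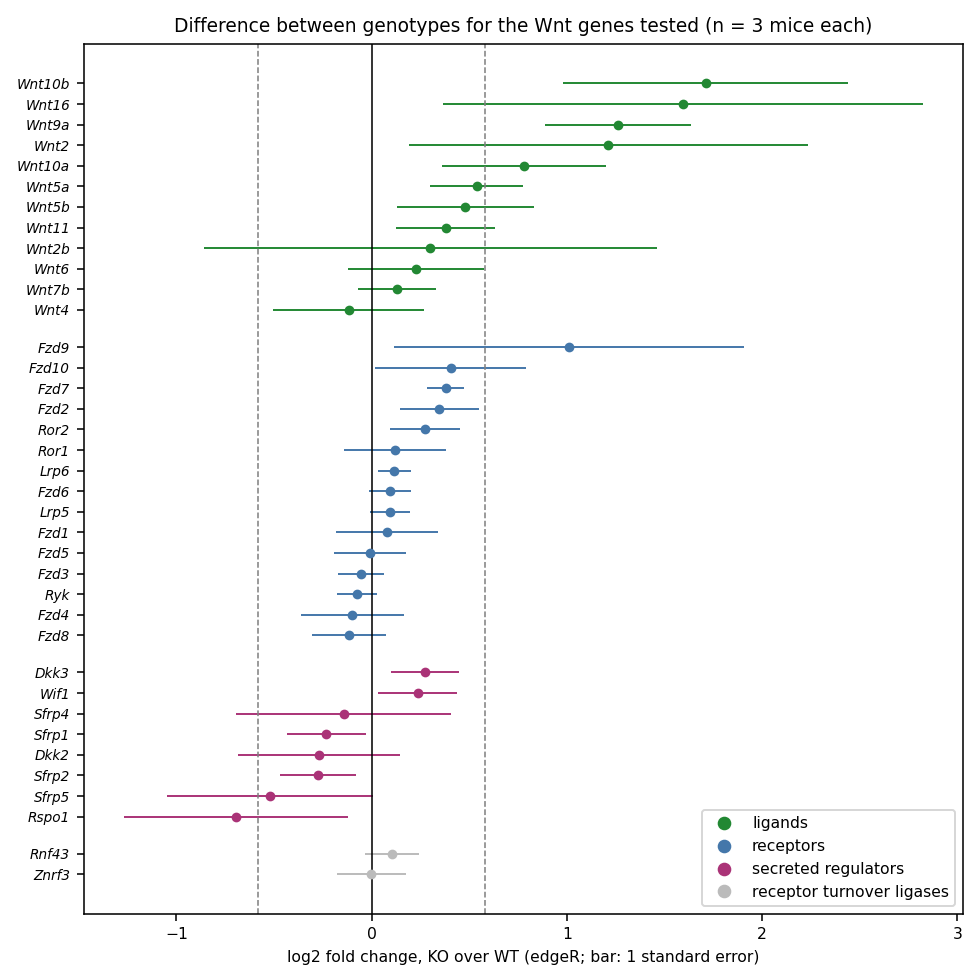
The log2 fold change of KO over WT (x axis) is plotted for the 37 genes tested, grouped by role, with bars of 1 standard error and dashed lines at a log2 fold change of 0.58 in either direction. Ligands other than Wnt4 lie right of 0 and 6 of 8 secreted regulators lie left of it, and no gene passed the test.

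Levels of different genes were compared per transcript length, as TPM rescaled to 1000000 without Gm23935, 1 gene that held between 83.0% and 85.7% of each library's TPM. Wnt5a was the most abundant ligand at 56.1 ± 15.4 rescaled TPM (SD, n = 6 libraries). Its lowest library, at 31.7, stood above the highest library of any other ligand, 24.5 for Wnt4. Wnt4 (16.7 ± 6.29), Wnt7b (14.5 ± 4.01), Wnt11 (13.0 ± 4.45), Wnt5b (11.97 ± 4.10) and Wnt6 (11.2 ± 3.11 rescaled TPM) followed in an order whose neighbours differed by less than their SD. Wnt10a, Wnt9a and Wnt10b were lower, at 3.13 ± 1.38, 1.36 ± 0.69 and 1.21 ± 1.096 rescaled TPM. Wnt2, Wnt16 and Wnt2b averaged between 0.23 and 0.53 rescaled TPM and had between 0 and 42 counts in a library. Wnt3a and Wnt7a had 0 counts in every library, and Wnt3 had 6 counts in KO replicate 3 and 0 in the others.

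**Figure D2:**
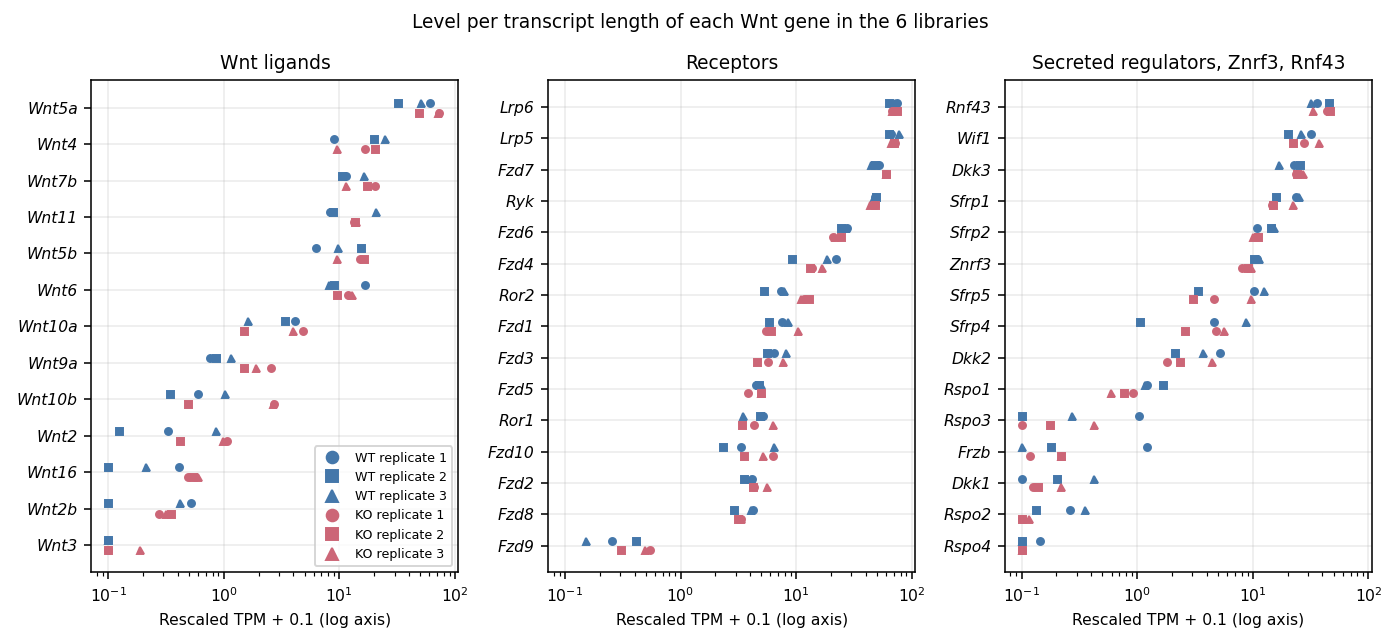
Rescaled TPM plus 0.1 (x axis, log scale) is plotted for each gene in the 6 libraries, WT in blue and KO in red, with 1 symbol per replicate number; Wnt3a and Wnt7a, at 0 in every library, are left out. Wnt5a leads the ligands, Lrp5 and Lrp6 lead the receptors, and Rnf43, Wif1 and Dkk3 lead the last panel.

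Wnt9a (ENSMUSG00000000126, GRCm38 chr11:59306928-59333552, plus strand) was the ligand with the smallest p. It had 1.43, 1.75 and 2.30 CPM in WT replicates 1 to 3 and 5.67, 3.31 and 4.15 CPM in KO replicates 1 to 3. Every KO library was above every WT library, at 44 to 60 counts in WT and 99 to 142 counts in KO. The mean was 1.83 ± 0.44 CPM in WT and 4.38 ± 1.201 CPM in KO (SD, n = 3), a log2 fold change of 1.26 ± 0.37 (SE) with an adjusted p of 0.906. The unadjusted p was 0.00907 and stayed at or below 0.0432 when any 1 mouse was left out. In limma on the deposited values the log2 fold change was 0.18 with log2(TPM + 1) (unadjusted p = 0.0448) and 0.70 with log2(TPM + 0.1) (unadjusted p = 0.0594). Wnt9a lies beside Wnt3a on chromosome 11, and no other annotated gene overlaps it.

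Wnt10b (ENSMUSG00000022996, GRCm38 chr15:98770712-98778150, minus strand), a ligand of the β-catenin route expressed in the embryonic mammary rudiment, had 0.454, 0.455 and 1.04 CPM in WT and 3.00, 0.568 and 2.81 CPM in KO. KO replicates 1 and 3 were above every WT library, while KO replicate 2 lay below WT replicate 3. The log2 fold change was 1.71 ± 0.73 (SE, adjusted p = 0.906), from 13 to 27 counts in WT and 17 to 88 counts in KO. Its unadjusted p of 0.0452 became as large as 0.147 when 1 mouse was left out. Its log2 fold change was 0.23 on the log2(TPM + 1) scale (unadjusted p = 0.0883) and 0.87 on the log2(TPM + 0.1) scale (unadjusted p = 0.119), on which offsets shrink the folds of low genes. Wnt10a, which lies beside Wnt6 on chromosome 1, showed the same 2 KO libraries on top, with 3.24, 3.33 and 2.38 CPM in WT and 6.47, 2.44 and 6.46 CPM in KO. Its log2 fold change was 0.78 ± 0.42. In rescaled TPM, WT replicate 1, at 4.02, lay above KO replicate 3, at 3.85, and the log2 fold change on the log2(TPM + 1) scale was 0.04.

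Wnt5a (ENSMUSG00000021994, GRCm38 chr14:28504750-28527448), which in many tissues signals without β-catenin, had 163, 86.8 and 139 CPM in WT and 206, 143 and 217 CPM in KO. The groups overlapped, since KO replicate 2 was below WT replicate 1. The log2 fold change was 0.54 ± 0.24 (SE, adjusted p = 0.906). In edgeR the unadjusted p was 0.0531, and it was 0.00419 without a filter and 0.00127 with the replicate number as a block. It was 0.0206 with DESeq2 and 0.231 in limma on log2(TPM + 1). When 1 mouse was left out, the edgeR p ranged from 0.0204 to 0.161. Replicate 2 was the lowest library of its genotype in both genotypes. Wnt4, which lies on chromosome 4, had 24.5, 58.8 and 68.0 CPM in WT and 49.2, 62.3 and 28.0 CPM in KO. It varied as much within as between genotypes, with a coefficient of variation of 45.5% in WT and a log2 fold change of -0.12 ± 0.39. Wnt7b, a ligand made by mammary epithelium, had 20.1, 20.8 and 29.3 CPM in WT and 26.7, 28.9 and 21.2 CPM in KO, and the KO range lay within the WT range.

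Of the remaining ligands, Wnt5b, Wnt6 and Wnt11 had log2 fold changes of 0.48 ± 0.35, 0.23 ± 0.35 and 0.38 ± 0.25, and each overlapped between genotypes. Wnt5b overlaps Fbxl14 on the opposite strand, a gene with 5013 counts against 3121 for Wnt5b, and use of strand in the counting was not given in the sources used here. Wnt2, Wnt2b and Wnt16, at few counts, had log2 fold changes of 1.21 ± 1.02, 0.30 ± 1.16 and 1.59 ± 1.23. On leaving out 1 mouse these ranged from 0.67 to 2.58, from -0.28 to 0.97 and from 1.03 to 3.71. Of the 9 ligands with a mean of at least 1 CPM, 8 had a log2 fold change above 0. The summed level of the ligands was 255, 213 and 284 CPM in WT and 355, 292 and 332 CPM in KO. The genotypes did not overlap in this sum, of which Wnt5a was the largest component. Without Wnt5a the sums were 91.5, 126 and 145 CPM in WT and 150, 149 and 115 CPM in KO, and the groups overlapped. In rescaled TPM the sums of all ligands overlapped too, at 118, 99.2 and 135 in WT and 161, 130 and 138 in KO.

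**Figure D3:**
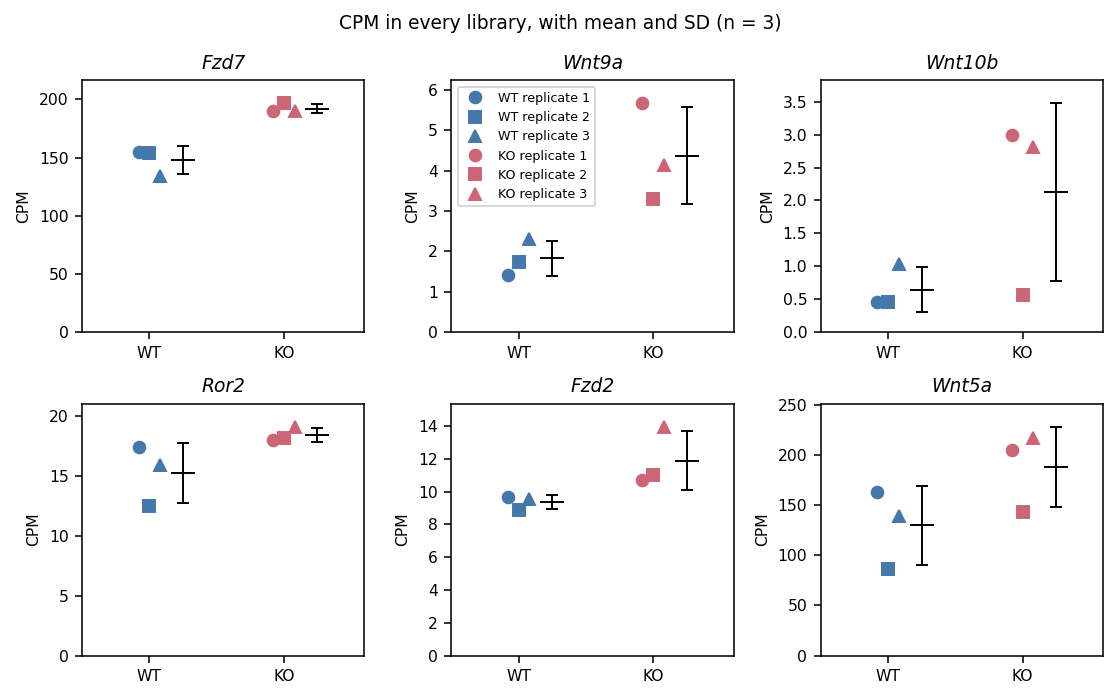
CPM (y axis, from 0) is plotted in every library for Fzd7, Wnt9a, Wnt10b, Ror2, Fzd2 and Wnt5a, with a bar for the mean and whiskers of 1 SD over 3 mice. All KO points lie above all WT points for Fzd7, Wnt9a, Ror2 and Fzd2, and KO replicate 2 falls among the WT points for Wnt10b and Wnt5a.

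All 15 receptors were detected and tested. The co-receptors led, with Lrp6 at 69.7 ± 4.29 and Lrp5 at 69.1 ± 4.84 rescaled TPM (SD, n = 6 libraries), which did not differ beyond their spread. Fzd7 at 53.8 ± 6.57 and Ryk at 47.5 ± 1.93 rescaled TPM overlapped each other and lay below both co-receptors in every library. Fzd6 (24.1 ± 2.74), Fzd4 (15.5 ± 4.56) and Ror2 (9.24 ± 2.93) came next, and Fzd1, Fzd3, Fzd5, Ror1, Fzd10, Fzd2 and Fzd8 averaged between 3.41 and 7.23 rescaled TPM. Fzd9 was the least abundant at 0.26 ± 0.15 rescaled TPM, with 2 to 19 counts in a library.

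Fzd7 (ENSMUSG00000041075, GRCm38 chr1:59482424-59486955, plus strand), the leading Frizzled here and a receptor linked to mammary stem cells, had the smallest p of the 37 genes. It had 155, 154 and 134 CPM in WT and 190, 197 and 190 CPM in KO. Every KO library stood above every WT library, and mice of a genotype differed little. The mean was 148 ± 11.9 CPM in WT and 192 ± 4.00 CPM in KO (SD, n = 3). This gave a fold of 1.30, a log2 fold change of 0.38 ± 0.10 (SE) and an adjusted p of 0.906, so that the difference was also smaller than the fold threshold. The unadjusted p was 0.00384, and it was at most 0.0166 when any 1 mouse was left out. In rescaled TPM Fzd7 had 52.0, 47.9 and 44.6 in WT and 59.4, 59.5 and 59.3 in KO, again without overlap. The log2 fold change was smaller on the deposited scale, which keeps Gm23935. There it was 0.18 for log2(TPM + 1) in limma, with an unadjusted p of 0.191.

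Ror2 (ENSMUSG00000021464, GRCm38 chr13:53109312-53286124), a receptor tyrosine kinase that binds WNT5A, had 17.4, 12.5 and 15.9 CPM in WT and 18.02, 18.19 and 19.11 CPM in KO. The gap between the groups was small beside the range within WT, and the log2 fold change was 0.27 ± 0.18 (SE, adjusted p = 0.940). Per transcript length the gap was wider, with 7.30, 5.21 and 7.72 rescaled TPM in WT and 11.6, 12.8 and 10.8 rescaled TPM in KO. Ror1, its relative, had a log2 fold change of 0.12 ± 0.26 and overlapped.

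Fzd2 (ENSMUSG00000050288, GRCm38 chr11:102604396-102608058) had 9.66, 8.86 and 9.52 CPM in WT and 10.71, 10.98 and 13.96 CPM in KO, a log2 fold change of 0.35 ± 0.20 (SE, adjusted p = 0.928). KO replicate 3 stood apart from the other KO libraries. Fzd6 (ENSMUSG00000022297, GRCm38 chr15:39006034-39038188) had 38.4, 41.6 and 41.8 CPM in WT and 43.2, 42.7 and 44.1 CPM in KO, a log2 fold change of 0.10 ± 0.11 (SE, adjusted p = 0.962). The order of the groups turned round per transcript length, since Fzd6 had 27.4, 24.2 and 26.8 rescaled TPM in WT and 20.5, 24.1 and 21.5 rescaled TPM in KO. The direction of Fzd6 thus depends on the unit.

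Lrp5 had 220, 221 and 264 CPM in WT and 260, 255 and 237 CPM in KO. Lrp6 had 303, 308 and 324 CPM in WT and 340, 350 and 323 CPM in KO. Both overlapped between genotypes, with log2 fold changes of 0.09 ± 0.10 and 0.12 ± 0.08 on counts. On the deposited log2(TPM + 1) scale, which keeps Gm23935, these were -0.08 and -0.09. In rescaled TPM Lrp5 had 66.7, 63.2 and 76.8 in WT and 71.6, 70.3 and 65.9 in KO. Lrp6 had 74.5, 63.6 and 71.2 rescaled TPM in WT and 67.1, 74.0 and 67.8 in KO. The other Frizzled genes with at least 1 CPM, Fzd1, Fzd3, Fzd4, Fzd5, Fzd8 and Fzd10, had log2 fold changes between -0.12 and 0.41 and all overlapped. The summed level of the receptors was 1042, 997 and 1081 CPM in WT and 1120, 1133 and 1132 CPM in KO. It did not overlap, but without Fzd7 the sums of 888, 843 and 947 CPM in WT and 930, 936 and 942 CPM in KO did. In rescaled TPM the sums of all receptors overlapped too, at 333, 292 and 332 in WT and 325, 332 and 329 in KO.

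The bases in front of the start sites of Wnt9a, Wnt10b and Fzd7 are shown because these 3 genes had an unadjusted p of at most 0.05. Each sequence is the 250 bases upstream of a RefSeq transcript start on GRCm38.p6, written 5′ to 3′ on the gene's strand. The positions are chr11:59306680-59306929 (plus strand) for Wnt9a, chr15:98778151-98778400 (minus strand) for Wnt10b and chr1:59481897-59482146 (plus strand) for Fzd7, whose RefSeq start lies upstream of its GENCODE start. Capitals mark, in Wnt9a and Wnt10b, the E-box CANNTG, a general core whose different forms are bound by many factors. In Fzd7 they mark the TCF/LEF core CTTTGT, read on the other strand.
Wnt9a: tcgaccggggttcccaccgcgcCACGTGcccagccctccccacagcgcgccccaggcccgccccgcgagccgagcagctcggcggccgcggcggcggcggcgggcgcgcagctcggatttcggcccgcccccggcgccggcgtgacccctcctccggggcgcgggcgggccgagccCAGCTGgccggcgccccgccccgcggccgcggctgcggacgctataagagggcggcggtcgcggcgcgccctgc
Wnt10b: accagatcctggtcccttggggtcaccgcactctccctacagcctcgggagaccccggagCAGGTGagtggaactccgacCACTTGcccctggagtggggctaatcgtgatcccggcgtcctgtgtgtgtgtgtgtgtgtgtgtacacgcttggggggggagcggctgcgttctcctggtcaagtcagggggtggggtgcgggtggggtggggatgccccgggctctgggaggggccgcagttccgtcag
Fzd7: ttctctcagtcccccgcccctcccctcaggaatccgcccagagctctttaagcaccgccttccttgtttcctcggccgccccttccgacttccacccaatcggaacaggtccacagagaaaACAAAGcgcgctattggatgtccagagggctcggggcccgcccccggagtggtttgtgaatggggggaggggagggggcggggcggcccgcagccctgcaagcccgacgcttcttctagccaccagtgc

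The Wnt9a sequence was 84.4% G or C, against 66.8% for Wnt10b and 65.2% for Fzd7. Wnt9a and Wnt10b each held 2 E-boxes and Fzd7 held none, where 66.2% of 32851 promoters of this length held at least 1. All motifs were searched on both strands. Of the forms of the TCF/LEF core, CTTTGT, added after the sequences were seen, was found once in Fzd7 and in 16.5% of all promoters, and CTTTGA was found in none of the 3 sequences and in 13.8% of all promoters. The GLIS-type core TGGGGGGT was found in none of the 3 and in 1.36% of all promoters. The motifs searched did not overlap one another here, and these matches describe the letters of the windows only.

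Of the 13 secreted regulators, 8 were tested. Wif1, at 27.3 ± 6.25, Dkk3, at 23.2 ± 3.53, and Sfrp1, at 19.3 ± 4.71 rescaled TPM (SD, n = 6 libraries), were the most abundant, and neighbours in this order differed by less than the larger of their SDs. Sfrp2, Sfrp5, Sfrp4 and Dkk2 averaged between 3.15 and 11.9 rescaled TPM, and Rspo1 averaged 0.96 ± 0.38 rescaled TPM.

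Sfrp1, a secreted Frizzled-related antagonist, had 67.1, 49.3 and 72.0 CPM in WT and 44.7, 47.1 and 68.5 CPM in KO, with a log2 fold change of -0.23 ± 0.20 (SE, adjusted p = 0.942). Sfrp5 had 11.96, 4.13 and 14.74 CPM in WT and 5.67, 3.84 and 11.9 CPM in KO, with a log2 fold change of -0.52 ± 0.53. Sfrp4 had 6.51, 1.89 and 10.5 CPM in WT and 6.35, 3.64 and 7.09 CPM in KO, with a log2 fold change of -0.14 ± 0.55. All these antagonists overlapped between genotypes, and for Sfrp4 and Sfrp5 replicate 2 was the lowest library in both genotypes. Sfrp2 and Dkk2 had log2 fold changes of -0.28 ± 0.20 and -0.27 ± 0.42 and overlapped as well.

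Wif1, which binds Wnt ligands directly, had 45.40, 30.98 and 37.46 CPM in WT and 42.4, 35.5 and 56.0 CPM in KO, with a log2 fold change of 0.23 ± 0.20. Dkk3, a divergent Dickkopf protein, had 49.5, 59.3 and 36.6 CPM in WT and 54.4, 58.1 and 63.1 CPM in KO, with a log2 fold change of 0.27 ± 0.17. They were the only secreted regulators tested with a log2 fold change above 0, and in both the highest library was KO replicate 3. Summed over the list, the secreted regulators reached 209, 172 and 201 CPM in WT and 173, 171 and 232 CPM in KO, which overlapped.

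R-spondins were scarce. Rspo1 had 26, 55 and 31 counts in WT and 25, 25 and 19 counts in KO, with a log2 fold change of -0.70 ± 0.57 (SE, adjusted p = 0.941). In CPM its groups overlapped, at 0.843 in WT replicate 1 and 0.999 in KO replicate 1. In rescaled TPM they did not, at 1.12, 1.57 and 1.06 in WT and 0.826, 0.667 and 0.491 in KO. Rspo2 had 10, 2 and 14 counts in WT and 0, 0 and 1 in KO, too few to pass the filter on low counts. Its KO libraries all lay below its WT libraries, but by a single count between WT replicate 2 and KO replicate 3. DESeq2, which kept it, gave an unadjusted p of 0.0299 and an adjusted p of 0.82. Rspo3 had 29, 0 and 9 counts in WT and 0, 5 and 6 in KO, and Rspo4 had 2 counts in WT replicate 1 and 0 in the other libraries. The antagonists Frzb, at 0 to 18 counts, and Dkk1, at 0 to 13 counts, also stayed below the filter.

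The ligases that take Frizzled receptors off the surface were both well detected. Rnf43, itself a β-catenin target in other epithelia, averaged 39.4 ± 6.47 rescaled TPM and Znrf3 9.74 ± 1.15. Rnf43 had 57.9, 70.7 and 56.0 CPM in WT and 60.7, 75.6 and 61.9 CPM in KO, with a log2 fold change of 0.10 ± 0.14. Znrf3 had 28.0, 22.4 and 29.5 CPM in WT and 29.5, 21.7 and 28.6 CPM in KO, with a log2 fold change of -0.00 ± 0.18. Replicate 2 was the highest library of both genotypes for Rnf43 and the lowest of both for Znrf3. Per transcript length the KO libraries of Znrf3, at 7.94, 9.02 and 9.56 rescaled TPM, lay below the WT libraries at 10.7, 10.2 and 11.1.

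Other genes of the pathway gave no call in any list. Of 12 tested genes for Wnt secretion and other surface partners, 8 had a log2 fold change above 0. Porcn, the acyltransferase that attaches the lipid to Wnt proteins, had 7.06, 4.90 and 5.79 CPM in WT and 7.11, 10.8 and 9.55 CPM in KO, with a log2 fold change of 0.63 ± 0.26 (SE, adjusted p = 0.906). Its groups were separated only by the small gap between the first library of each genotype, and they overlapped in rescaled TPM, at 7.31 in WT replicate 1 and 6.70 in KO replicate 1. Lgr5, an R-spondin receptor, had a log2 fold change of -0.08 ± 0.26. Of 11 genes of the intracellular relay, such as Dvl, Axin1, Gsk3b and Ctnnb1, 10 had a log2 fold change above 0, the highest at 0.21. Of 11 TCF factors and feedback targets, 5 lay above 0 and 6 below.

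Among those targets, Axin2, the most widely used readout of β-catenin signaling, had 11.3, 9.38 and 8.75 CPM in WT and 7.75, 5.74 and 17.0 CPM in KO, with a log2 fold change of 0.05 ± 0.38. Lef1 had 1.85, 2.66 and 3.57 CPM in WT and 2.04, 4.31 and 13.1 CPM in KO, with a log2 fold change of 1.27 ± 0.63 (SE, adjusted p = 0.907). KO replicate 3 was the highest library for both and KO replicates 1 and 2 were below every WT library for Axin2. The leukocyte marker Ptprc was also highest in KO replicate 3, at 38.7 CPM against 14.8 and 14.5 CPM in the other KO libraries, as were the T cell marker Cd3e, at 2.97 CPM, and Tcf7, at 88.9 CPM. Their part in the Lef1 values was not tested. Nkd1, a feedback inhibitor, was lower in KO without overlap, at 35.1, 35.7 and 43.1 CPM in WT and 31.2, 27.6 and 34.9 CPM in KO (log2 fold change -0.28 ± 0.15, adjusted p = 0.919). Ccnd1, which encodes cyclin D1, was higher without overlap, at 236, 232 and 255 CPM in WT and 276, 261 and 257 CPM in KO (log2 fold change 0.14 ± 0.09, adjusted p = 0.940). In rescaled TPM Ccnd1 overlapped, at 126, 107 and 124 in WT and 113, 116 and 113 in KO.

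The libraries also differed in markers of cell types, none of which was at 0 in every library. In bulk samples, fewer cells of a type and less RNA per cell cannot be told apart. Summed basal markers ranged from 4683 to 6011 CPM in WT and from 6398 to 7696 CPM in KO, without overlap, and all 10 basal markers had a log2 fold change above 0 (median 0.42), 6 of them at an unadjusted p of at most 0.05, beside 5.32% of all genes. Luminal markers ranged from 4069 to 6823 CPM in WT and from 4018 to 7108 CPM in KO. Fibroblast markers, which include Col1a1, ranged from 2589 to 8298 CPM in WT and from 2971 to 6533 CPM in KO. Endothelial markers ranged from 119 to 639 CPM in WT and from 181 to 645 CPM in KO, and immune markers from 14.7 to 26.8 CPM in WT and from 26.3 to 57.1 CPM in KO, with the highest value in KO replicate 3. Adipocyte, skeletal muscle and Schwann cell markers ranged up to 309, 45.8 and 408 CPM in WT and up to 264, 13.1 and 293 CPM in KO, with medians of log2 fold change of -0.10, -1.38 and -0.88. At an unadjusted p of at most 0.05 were 3 of 6 Schwann cell markers, all lower in KO and without overlap, 2 of 6 skeletal muscle markers and 1 of 5 adipocyte markers, also lower, and 3 of 6 immune markers, 2 of them higher without overlap and 1 lower. No luminal, fibroblast or endothelial marker was. Higher in KO without overlap were 3 of 10 basal and 2 of 6 immune markers. Lower without overlap were 3 of 6 Schwann cell markers and 1 of 5 adipocyte markers. Of all genes, 11.7% did not overlap in either direction. The luminal, fibroblast, endothelial and skeletal muscle lists had no such marker. The basal markers moved in the direction of the ligand and receptor sums and of Wnt9a and Fzd7, and the part of cell makeup in these differences was not tested.

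**Figure D4:**
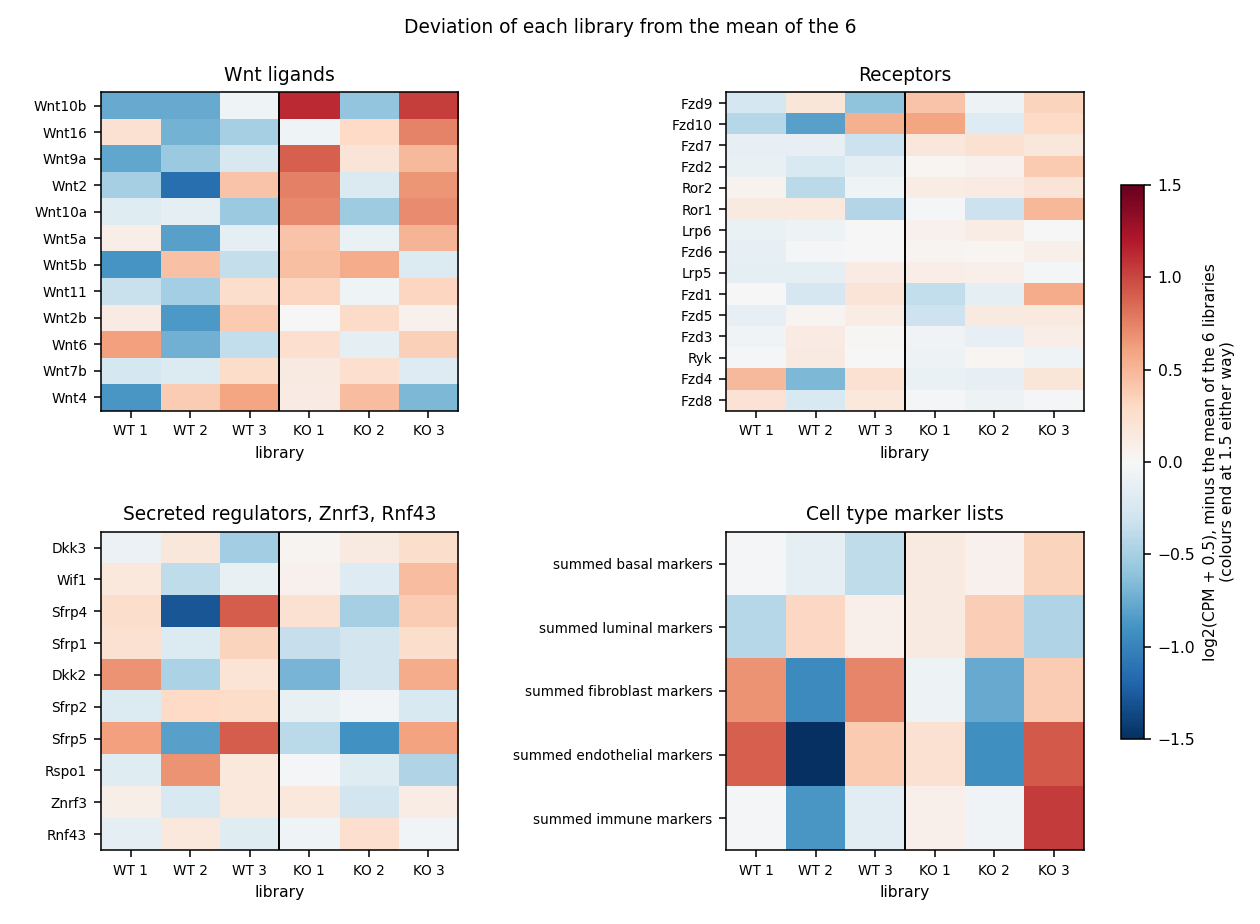
Colours give log2(CPM + 0.5) of each gene or summed marker list (rows) in each library (columns), minus the mean of the 6 libraries, with a line between the WT and KO libraries. WT replicate 2 and KO replicate 2 are low in fibroblast and endothelial markers and in Wnt5a, Wnt11, Sfrp4, Sfrp5 and Fzd4, and the KO libraries are higher in basal markers.

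A second pattern ran across genotypes. In both genotypes replicate 2 had the lowest summed fibroblast and endothelial markers, with 8 of 10 fibroblast and 6 of 6 endothelial markers lowest there, and 6 of 10 luminal markers highest there. Of the 37 Wnt genes tested, 11 were lowest in replicate 2 of both genotypes (29.7%), beside 16.6% of all genes, namely Wnt2, Wnt5a, Wnt6, Wnt11, Fzd4, Fzd8, Fzd10, Sfrp4, Sfrp5, Wif1 and Znrf3. Only Wnt5b, Ryk, Sfrp2 and Rnf43 were highest there (10.8%), beside 16.0% of all genes. Without both replicates 2, a choice made after the data were seen, 7 of the 37 genes had an unadjusted p of at most 0.05 (18.9%), beside 5.13% of all genes. These were Wnt5a, Wnt5b, Wnt9a, Wnt10a, Wnt10b, Fzd7 and Dkk3, and again none was called. With 2 mice per genotype left, 18 genes (48.6%) did not overlap, beside 34.7% of all genes. Whether replicate 2 marks cell makeup or another feature of those libraries was not tested.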

How the data were processed

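Gene expression was measured by total RNA-seq (SMARTer stranded pico-input libraries) in sorted mammary cells of 3 WT and 3 KO mice. The authors quantified reads with Salmon 1.2.1, as the submitters' processing notes state, on an mm10 transcriptome with the genome as decoy, and summed transcripts per gene with tximport. They deposited estimated counts, which are whole numbers without normalization, and log2 values of TPM + 1. Use of strand in the counting was not given in the sources used here, so opposite-strand genes may share reads.

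Of 54418 identifiers, 54166 matched GENCODE M21 (GRCm38). Counts were fitted in edgeR 4.0.16 (R 4.3.3) with filterByExpr, TMM, the quasi-likelihood test and Benjamini-Hochberg adjustment over 21236 genes. A call needed an adjusted p not above 0.05 and a log2 fold change of 0.58 or more in either direction. Alternatives were DESeq2 1.42.0 with apeglm 1.24.0, DESeq2 size factors, other filters, no fold threshold, limma 3.58.1 on log2 TPM (offset 1 or 0.1), the replicate number as a block, and each mouse left out in turn. The limma fits used the deposited values with Gm23935 kept. Libraries were not copies of one another, with a chi-square per degree of freedom of at least 18.8. The functions were tested on simulated data.

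The genes and lists were chosen with earlier results of these data known. Values in every library are given for genes with an unadjusted p of at most 0.05 or without overlap, the 3 most abundant per role, and the 3 most variable of at least 1 CPM. Of the other pathway genes, they are given by the same limits of p and overlap, and for Axin2 and Lef1. Glis2 is given as the targeted gene. Other values in every library (Wnt3, Wnt10a, Rspo1 to Rspo4) were chosen after they were seen. Promoters of 30 of the 45 genes were in the RefSeq table used.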

Additional observations from a re-analysis of the deposited data

How the results depend on the processing

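No alternative called a Wnt gene, and 21 of the 37 genes kept their direction in every alternative fit that held them, 18 of them in all 14 fits, Wnt5a, Wnt9a, Wnt10b, Fzd2, Fzd7, Ror2, Sfrp1 and Sfrp5 among them. The number at an unadjusted p of at most 0.05, which was 3, became 5 with DESeq2, 1 with log2(TPM + 0.1) (Ror2, which log2(TPM + 1) also gave, with Wnt9a but not Fzd7), 2 to 5 on leaving out 1 mouse (2 without KO replicate 1, and 5 without any single WT mouse or KO replicate 2) and 7 without both replicates 2. With 1 mouse left out these were 5.26% to 13.5% of the Wnt genes, beside 3.61% to 6.11% of all genes. Wnt9a and Fzd7 stayed at or below 0.05 whichever mouse was left out, and Wnt10b did so only without WT replicate 3 or KO replicate 2. The number without overlap, which was 5, became 7 in both log2 TPM fits (18.9%, beside 13.1% of all genes), 8 to 13 with 1 mouse fewer (21.1% to 34.2%, beside 19.1% to 23.6% of all genes) and 18 without both replicates 2 (48.6%, beside 34.7%), since fewer values must be separated when mice are left out. With no filter or with DESeq2, which admitted 43 of the 45 genes, 11 secreted regulators lay below 0. The median log2 fold change over the Wnt genes ranged from 0.08 to 0.19 on leaving out 1 mouse. It was -0.009 with log2(TPM + 1) and -0.008 with log2(TPM + 0.1), where the median of all genes was -0.064 and -0.139. Both log2 TPM fits used the deposited values, in which Gm23935 was kept. That gene held 85.5%, 83.1% and 83% of the TPM in WT replicates 1 to 3 and 83.6%, 85.7% and 85.6% in KO replicates 1 to 3. Its part in these medians was not tested. Nothing in the labels pairs the mice by replicate number. Between same-numbered mice of the genotypes, the correlations of deviations were -0.02, 0.17 and 0.02. Differently numbered mice were not compared, so these values cannot show whether the numbers pair the mice. The replicate block gave a median of 0.115 and 3 genes at an unadjusted p of at most 0.05, with Wnt5a in place of Wnt10b.

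Directions reversed for 16 genes, none of them called, and the cause was not tested. On log2(TPM + 1) and log2(TPM + 0.1) the log2 fold change was -0.0081 and -0.035 for Wnt2b, -0.0094 and -0.0075 for Wnt6, -0.07 and -0.132 for Fzd1, -0.272 and -0.336 for Fzd6, -0.081 and -0.087 for Lrp5, -0.092 and -0.099 for Lrp6, and -0.022 and -0.06 for Ror1. Sfrp4 was at 0.067 on log2(TPM + 0.1) and at 0.09 under the replicate block. Without both replicates 2 it was -0.474 for Wnt2b, -0.054 for Wnt7b, 0.039 for Fzd3 and 0.0088 for Znrf3. On leaving out 1 mouse the log2 fold change ranged from -0.279 to 0.971 for Wnt2b, -0.469 to 0.158 for Wnt4, -0.03 to 0.721 for Wnt6, -0.272 to 0.258 for Fzd1, -0.37 to 0.135 for Fzd4, -0.102 to 0.129 for Fzd5, -0.163 to 0.291 for Ror1, -0.574 to 0.437 for Sfrp4, -0.749 to 0.04 for Dkk2, -0.111 to 0.119 for Znrf3 and -0.013 to 0.216 for Rnf43.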

Other observations

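Other Wnt ligand genes, chosen after their values were seen, had at most 28 counts in a library. Wnt9b, the neighbour of Wnt3 on chromosome 11, had 17, 11 and 9 counts in WT and 28, 1 and 4 counts in KO, with a log2 fold change of -0.02 ± 1.15. Wnt1, the neighbour of Wnt10b on chromosome 15, had 7 counts in KO replicate 1 and 0 in every other library. Wnt8b had 0, 4 and 6 counts in WT and 10, 0 and 3 counts in KO. Wnt8a had 0, 0 and 1 counts in WT and 0, 0 and 10 counts in KO. The highest count was in KO replicate 1 for Wnt1, Wnt8b and Wnt9b and in KO replicate 3 for Wnt8a.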
